A study of Gallus gallus with 4 samples.

Results

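Of 10585 genes measured on the numbered chromosomes of the chick, 182 had their highest expression at Hamburger-Hamilton stage HH11, at least 1.5 times the level at HH10, at HH12 and at HH13. The libraries came from area vasculosa cut from incubated chick embryos (Gallus gallus) at HH10, HH11, HH12 or HH13, with 1 library per stage and no treatment named in the labels. The strain, the sex and the number of embryos behind each library were not given in the sources used here. Expression was given as FPKM, fragments scaled to transcript length and library size, and the depth is unknown because such values keep no read count. Ratios were taken on FPKM + 1, so those of weakly expressed genes come out too small. The genes were chosen from these same 4 values, so their HH11 level is described and not tested, and no value carries a standard deviation because no stage was replicated.

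The area vasculosa is the part of the yolk sac in which the first blood islands and vessels form. It is built of an ectoderm that spreads over the yolk, a mesoderm that gives blood and endothelium, and an endoderm that takes up yolk. Its cells exchange secreted factors of the BMP, Wnt and PDGF families across these layers while the primitive circulation is being laid down.

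The share of genes peaking at HH11 was 1.72%. By the same rule, 126 genes (1.19%) peaked at HH10, 51 (0.482%) at HH12 and 1262 (11.9%) at HH13. The order of HH10 and HH11 depended on the limit, since at 2-fold 51 genes peaked at HH10 and 44 at HH11. With total FPKM made equal between libraries, 87 genes peaked at HH10 and 482 at HH11. Most of the 182 exceeded the next stage by a modest amount. The ratio of HH11 to the next highest stage was between 1.5 and 2 in 138 genes, between 2 and 3 in 26, between 3 and 5 in 7 and 5 or more in 11. A gene symbol was given for 133 of the 182 (73.1%, against 89% of all genes), a small RNA name for 12 (6.59%, against 1.08%), and 37 carried only an Ensembl identifier. HH11 reached 5 FPKM in 131 members (72%, against 69.5%) and 100 FPKM in 18 (9.89%, against 8.49%). The minimum of 1 FPKM was passed through the HH11 library alone in 34 members (18.7%, against 0.68%). HH11 was therefore bound to be their highest stage, though not by 1.5-fold. Just inside the limit were FAM83B, CYP51A1 and SDC4, at ratios of 1.51, 1.51 and 1.502. ALPK3, ACTN1 and CMTM4 lay just outside, each at 1.49.

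The tissue markers in these libraries also differed by stage. HBG1 for blood, CDH5 for endothelium, APOA1 for endoderm and HAND1 for mesoderm were present at every stage, and each was lowest at HH11. HBG1 had 463, 51.3, 6027 and 13730 FPKM from HH10 to HH13. Of 13 erythroid genes measured, 8 were at least 1.5-fold lower at HH11 than at HH10 and 0 were higher, and their summed level was 1876 FPKM at HH10 and 410 FPKM at HH11. Of 27 yolk sac endoderm genes, 19 were lower and 1 was higher, and of 24 endothelial genes 13 were lower and 2 higher. Of 19 mesoderm genes, 10 were lower and 2 higher, but their summed level was nearly flat, at 538 FPKM at HH10 and 533 FPKM at HH11. Surface ectoderm and epithelial genes went the other way, with 8 of 43 higher and 4 lower and a summed level of 4255 FPKM at HH10 and 6872 FPKM at HH11. KRT19 alone carried most of that rise, and the other 42 genes summed to 2181 FPKM at HH10 and 2819 FPKM at HH11. The background over all 10585 genes was 6.53% higher and 9.87% lower by the same limit. OSR1 of the mesoderm list was listed at 0 at HH11, and no gene of the erythroid, endothelial, endoderm or ectoderm lists was. In bulk tissue, fewer cells of a type and less RNA per cell cannot be told apart, and the part of cell makeup in the HH11 peak was not tested. The HH10 library also stood apart. HINTW, a gene of the female-specific W chromosome, was listed at 0 there and at 1530 FPKM or more in each other library. A single row, ENSGALG00000026592, held 13.3% of the total FPKM at HH10, against 0.668%, 0.673% and 1.26% at HH11, HH12 and HH13. Without HH10 in the rule, 422 genes peaked at HH11.

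**Figure D1:**
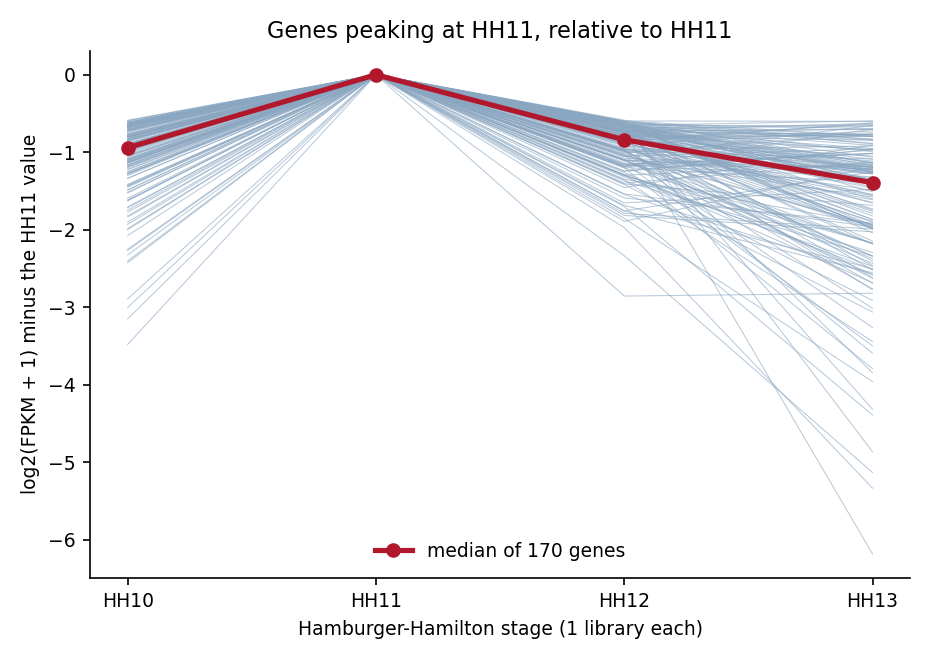
Each thin line is 1 gene peaking at HH11, plotted as log2(FPKM + 1) minus its HH11 value against stage, and the thick line is the median of 170 genes. The 12 genes listed at 0 at HH10, HH12 and HH13 are left out. The lines lie close together at HH10 and HH12 and spread further down at HH13.

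Secreted proteins with high ratios are described first. EX-FABP, a lipocalin that binds fatty acids, lies on chromosome 17 at 501842 to 504845 of build galGal4 (ENSGALG00000024011). It had 114 FPKM at HH10, 617 at HH11, 156 at HH12 and 14.3 at HH13, so HH11 stood 3.92 times above the next stage. The next gene along, ENSGALG00000009019, begins 798 bases beyond it and took a like course with 2.65, 39.8, 7.08 and 0.162 FPKM. ASTL, an astacin-type metalloprotease (chromosome 5 at 21649227 to 21661084), had 165, 790, 218 and 49.8 FPKM. In each of these genes HH13 was the lowest stage, below HH10.

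TGM4, a transglutaminase that crosslinks proteins, was among the most abundant members at HH11. It had 329, 901, 308 and 150 FPKM in stage order. VNN1, a pantetheinase held at the cell surface, had 2.97, 28.5, 8.05 and 0.404 FPKM. Among metalloproteases of the ADAM family, ADAM19 had 1.84, 7.77, 2.56 and 0.946 FPKM, and ADAMTS20 had 2.64, 14.3, 6.75 and 0.269 FPKM. ADAMTS9 was closer to the limit, with 7.02, 13.0, 7.89 and 8.26 FPKM. Of the 49 measured genes in a list of proteases and inhibitors, 3 (6.12%) peaked at HH11, against 1.72% of all genes. These were ASTL, ADAMTS9 and ADAM19, and ADAMTS20 is a member outside that list. In the list, 11 were at least 1.5-fold higher and 11 lower at HH11 than at HH10. The list was thus split evenly between the directions, beside 6.53% higher and 9.87% lower over all genes.

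Ligands and proteins that bind them were among the members, a grouping made after the values were seen. NMU, which encodes the peptide neuromedin U (chromosome 4 at 64646052 to 64657877), had 1.12, 10.2, 0.550 and 0.589 FPKM. Its ratio of 5.29 was the greatest among members with a symbol. CCK, the precursor of the peptide hormone cholecystokinin, had 11.2, 20.1, 5.25 and 2.59 FPKM. NMU and CCK were both lower at HH12 than at HH10, unlike EX-FABP and ASTL.

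BMP2, a bone morphogenetic protein on chromosome 3 at 14447219 to 14450083, had 25.3, 46.3, 27.2 and 9.68 FPKM. NOG, the secreted antagonist noggin that binds BMPs, peaked at the same stage with 34.3, 65.6, 40.8 and 2.34 FPKM. SMAD9, a receptor-activated transducer of BMP signals, had 5.27, 10.1, 3.29 and 1.19 FPKM. A ligand, its antagonist and a transducer of the pathway thus shared the HH11 peak, and all had their lowest value at HH13. Of 34 measured genes of the BMP and TGF-beta list, these 3 (8.82%) were members, against 1.72% of all genes. Past the 1.5-fold limit, 5 of the 34 were higher at HH11 than at HH10 and 6 lower, beside 6.53% and 9.87% of all genes. BMP4 missed the rule, with 19.9, 32.1, 22.2 and 15.7 FPKM, as did BMP7, with 47.0, 54.3, 40.6 and 20.9 FPKM. Other genes of the list were lowest at HH11. BMP6 had 10.6, 9.34, 11.4 and 13.6 FPKM, and SMAD1 had 11.8, 9.05, 13.8 and 15.4 FPKM.

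Both members from the Wnt list were ligands. WNT3A, which acts through beta-catenin, had 16.6, 41.1, 25.5 and 10.5 FPKM. WNT5B, which mostly signals independently of beta-catenin, had 77.8, 122, 68.2 and 41.2 FPKM. Of 45 genes of that list measured, these were the only members (4.44%, against 1.72% of all genes). In the list, 6 were at least 1.5-fold higher and 5 lower at HH11 than at HH10, beside 6.53% and 9.87% of all genes. The feedback inhibitor gene NOTUM had 45.8, 61.7, 40.5 and 7.32 FPKM, and AXIN2, a widely used Wnt target, had 20.3, 23.3, 17.2 and 10.9 FPKM. Neither reached the rule. DACT1 and DACT2, which encode proteins that bind Dishevelled in Wnt signalling, were members outside that list, and DACT2 had 21.1, 36.0, 23.1 and 20.3 FPKM.

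The growth factor genes PDGF-A and PDGFB were members as well. PDGF-A had 15.1, 25.6, 15.1 and 15.3 FPKM, so its level outside HH11 was nearly flat. PDGFB had 8.07, 14.8, 6.72 and 3.12 FPKM. IGF2, an insulin-like growth factor, had 16.8, 30.3, 15.6 and 5.18 FPKM. EDA, the TNF-family ligand ectodysplasin of skin appendages, had 32.8, 53.2, 33.0 and 20.3 FPKM. STC2, the glycoprotein hormone stanniocalcin 2, had 7.59, 16.4, 7.92 and 1.15 FPKM. It was the 1 member among 27 hypoxia response genes (3.70%, against 1.72% of all genes). VEGFA in that list was lowest at HH11, with 7.72, 3.999, 4.69 and 9.64 FPKM. Cytokine genes were present at low levels, such as CSF3 with 2.08, 5.78, 2.15 and 0.310 FPKM. EX-FABP and NFKBIZ, a nuclear regulator of NF-kappaB, were the members among 32 cytokine and inflammation genes (6.25%, against 1.72% of all genes). By the 1.5-fold limit, HH11 exceeded HH10 in 14 of these and lay under HH10 in 3, beside 6.53% and 9.87% of all genes. Against HH12 the counts were 3 above and 4 under, beside 6.55% and 9.88%, so most of this list did not peak at HH11.

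**Figure D2:**
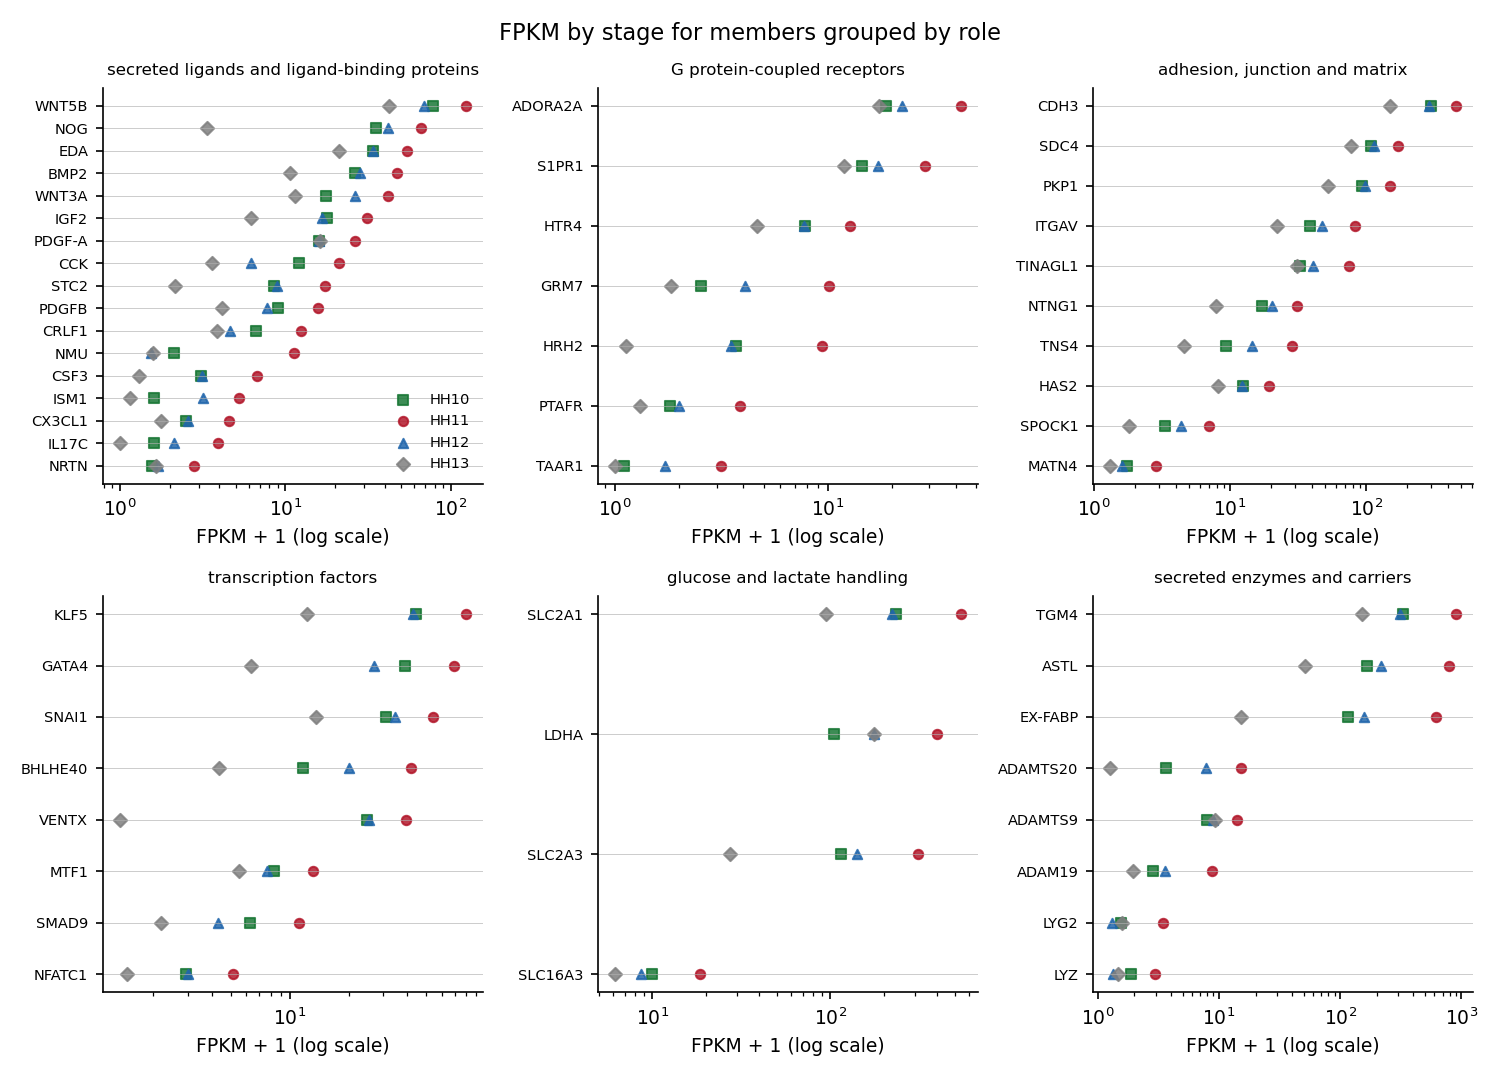
FPKM + 1 (log scale) at each stage for members grouped by role, with 1 symbol per library and genes ordered by their HH11 value. The HH11 symbol lies rightmost in every row because the rule chose it so. The genes of each role were picked after the values were seen and are not every member with that role.

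The receptors among the members included G protein-coupled receptors, again grouped after the values were seen. ADORA2A, an adenosine receptor, had 17.9, 41.3, 21.5 and 16.4 FPKM. S1PR1, the receptor for sphingosine-1-phosphate in endothelium, had 13.4, 27.6, 16.4 and 10.99 FPKM. It was the 1 member among the 24 endothelial genes (4.17%, against 1.72% of all genes). CDH5, the endothelial cadherin, had 21.4, 7.25, 13.8 and 40.9 FPKM, with its lowest value at HH11. HRH2, a histamine receptor, had 2.72, 8.39, 2.52 and 0.124 FPKM. GRM7, a metabotropic glutamate receptor, had 1.54, 9.16, 3.08 and 0.830 FPKM. The serotonin receptor gene HTR4 had 6.80, 11.8, 6.78 and 3.67 FPKM. BLNK, an adaptor protein of B-cell receptor signalling, had 5.97, 25.1, 7.66 and 5.91 FPKM, nearly the same at HH13 as at HH10.

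Glucose uptake and lactate genes had the greatest share of members of the 24 lists examined. The lists were chosen with earlier results of these data known, so this rank is a description. Of 26 measured genes of glycolysis and glucose uptake, 4 (15.4%) were members, against 1.72% of all genes. The glucose transporter SLC2A1 (chromosome 21 at 6450516 to 6459194) had 235, 540, 221 and 93.6 FPKM, and SLC2A3 had 114, 310, 141 and 26.5 FPKM. LDHA, a lactate dehydrogenase subunit, had 103, 398, 176 and 174 FPKM. SLC16A3, a lactate exporter, had 8.95, 17.5, 7.66 and 5.20 FPKM. Import of glucose, formation of lactate and its export were thus each represented, though not by every carrier of the list. SLC16A1 had 155, 124, 108 and 133 FPKM. SLC2A2 was lowest at HH11, with 20.8, 17.4, 30.4 and 80.3 FPKM. LDHB, the other lactate dehydrogenase subunit, had its lowest value at HH11, with 2272, 1081, 2380 and 4191 FPKM. Enzymes between the transporters and lactate differed less. PGAM1 had 1116, 1563, 1170 and 719 FPKM, and PKM, pyruvate kinase, had 1187, 1491, 1030 and 650 FPKM. GAPDH and TPI1 were instead highest at HH13, with 3271, 3507, 3925 and 4419 FPKM and 687, 712, 944 and 1058 FPKM. In the list as a whole, 4 genes were past the 1.5-fold limit upward and 3 downward for HH11 against HH10. Over all genes these shares were 6.53% and 9.87%. Other carriers among the members were SLC26A9, an anion transporter with 69.5, 164, 96.7 and 30.2 FPKM, and SLC5A8, a sodium-coupled transporter of lactate and short-chain fatty acids with 1.82, 21.6, 13.8 and 4.49 FPKM.

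Epithelial adhesion genes were next. CDH3, which encodes P-cadherin (chromosome 11 at 18310977 to 18316940), had 296, 455, 289 and 149 FPKM. PKP1, a desmosomal plakophilin, had 92.2, 147, 96.8 and 51.0 FPKM. SDC4, a heparan sulphate proteoglycan of the cell surface, had 108, 169, 112 and 76.2 FPKM. These abundant genes lay near the limit, with ratios of 1.54, 1.52 and 1.502.

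ITGAV, the integrin alpha-V subunit, had 37.9, 81.1, 46.2 and 20.9 FPKM. LY6E, a small protein anchored to the membrane by lipid, had 623, 1016, 633 and 460 FPKM. Of the 43 ectoderm and epithelial genes, PKP1 and KLF5 were the members (4.65%, against 1.72% of all genes). KRT19, the most abundant keratin gene of the list, had 2075, 4053, 4039 and 3390 FPKM, and its levels at HH12 and HH13 kept it out. CDH1, which encodes E-cadherin, was lowest at HH11, with 52.5, 47.2, 64.0 and 90.9 FPKM. Among the 10 claudins and 6 keratins measured, 0 were members, which in sets this small does not differ from the 1.72% of all genes. KRT5, a keratin gene outside the numbered chromosomes, met the same ratio with 0.450, 1.58, 0.697 and 0.346 FPKM. It reached 1 FPKM only at HH11, so HH11 was bound to be its highest stage.

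The transcription factors given here were grouped after the values were seen. KLF5, a zinc finger factor of epithelia (chromosome 1 at 155257165 to 155276151), had 43.4, 78.5, 42.0 and 11.3 FPKM. GATA4, a zinc finger factor of endoderm and heart (chromosome 3 at 106954748 to 106976693), had 37.9, 68.0, 25.9 and 5.34 FPKM. It was the 1 member among 27 endoderm genes (3.7%, against 1.72% of all genes). APOA1, an apolipoprotein of the same list, had 7827, 3412, 8331 and 21727 FPKM, so the factor and the carrier took opposite courses. SNAI1, a repressor of E-cadherin in epithelial-mesenchymal transition, had 30.2, 53.2, 33.6 and 12.7 FPKM. VENTX, a homeobox factor, had 24.0, 38.5, 24.4 and 0.353 FPKM. BHLHE40, a helix-loop-helix repressor that responds to hypoxia and the circadian clock, had 10.7, 40.6, 19.2 and 3.34 FPKM.

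Further members with large ratios belong to none of these groups. RIPK4, a kinase of keratinocyte differentiation, had 7.40, 18.2, 7.93 and 2.21 FPKM. USP43, a ubiquitin-specific protease, had 7.40, 18.99, 7.73 and 6.61 FPKM. SLC2A4RG, a regulator of the glucose transporter gene SLC2A4 and not itself a transporter, had 3.27, 7.56, 2.83 and 3.24 FPKM. ASPHD2, a hydroxylase domain protein, had 4.62, 14.1, 5.15 and 1.003 FPKM. All of these were at least 2-fold above the next stage.

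The heat shock protein gene HSPB8, a small chaperone, had 8.74, 45.9, 22.6 and 8.28 FPKM and was the 1 member of 35 measured chaperones (2.86%), a share near the background. HSP90AA1 missed the rule with 488, 935, 828 and 533 FPKM. Several groups had 0 members. With 1.72% of all genes peaking at HH11, lists this short can hold 0 members without differing from the background. These were the erythroid (13 measured), thrombocyte (9), neural (13), cardiac (14) and somite (5) lists, 45 cell cycle genes, 36 nuclear genes of oxidative phosphorylation, 35 genes of the amino acid and ER stress response, 23 immediate early genes, 22 genes of the p53 and apoptosis list and 21 genes of FGF and EGF signalling. The remaining lists with 1 member each were pluripotency and germ cell genes (VENTX, of 22, 4.55%), mesoderm genes (SNAI1, of 19, 5.26%) and macrophage genes (LYZ, of 8, 12.5%). The share over all genes was 1.72%. LYZ encodes lysozyme and reached only 1.95 FPKM at HH11. It passed the minimum of 1 FPKM through the HH11 library alone, so HH11 was bound to be its highest stage.

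**Figure D3:**
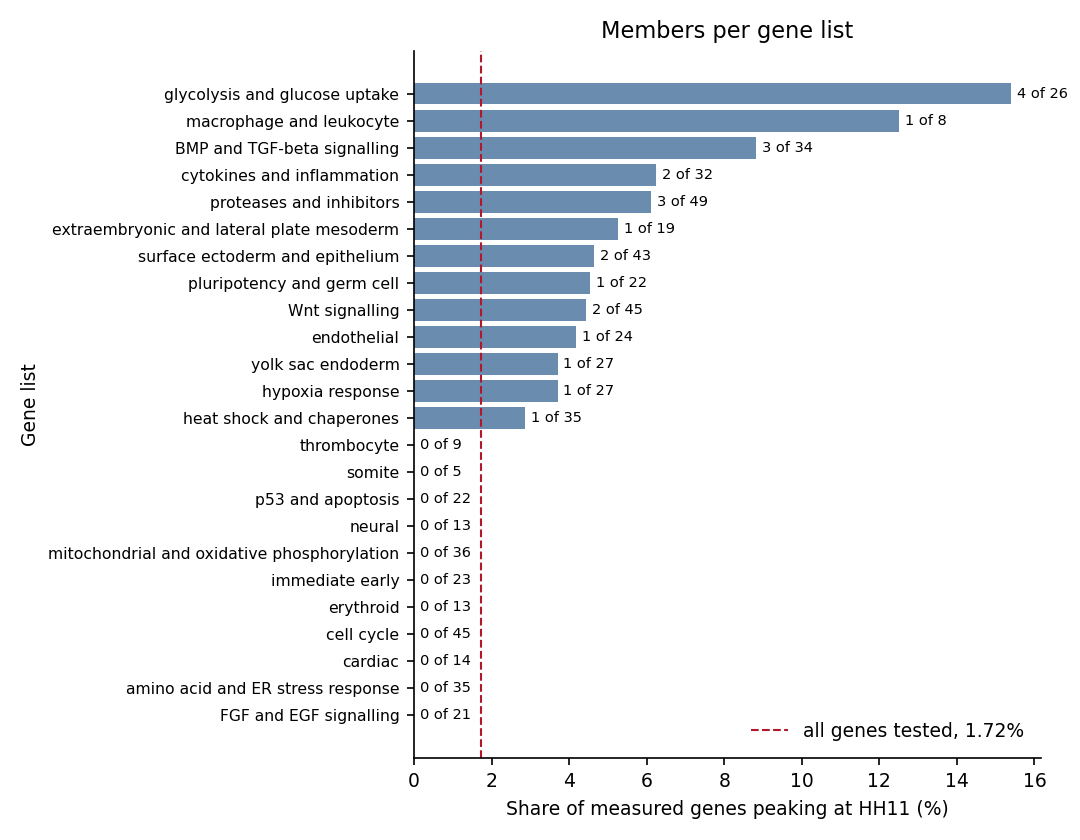
Bars give the share of each list's measured genes that peaked at HH11 (%), with the count beside each bar, and the dashed line marks the 1.72% of all genes tested. Glycolysis and glucose uptake has the longest bar, 4 of 26 genes, and short lists such as macrophage genes rest on 1 member.

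The rule set HH11 against each other stage but left the order of the other stages free. HH10 and HH12 were close in most members. The median log2 difference between HH12 and HH10 was 0.04, the same as over all genes at 0.04. HH12 was at least 1.5-fold higher than HH10 in 20 members (11%, against 8% of all genes) and at least 1.5-fold lower in 3 (1.65%, against 6.75%). SLC5A8 was the member with the greatest excess of HH12 over HH10, at 5.25-fold on the FPKM + 1 scale. The 3 lower at HH12 were CCK, ENSGALG00000023589 and CD320, the receptor for the vitamin B12 carrier, which had 17.4, 30.4, 8.08 and 6.89 FPKM.

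HH13 was lower than HH10 and HH12 in many members. It was at least 1.5-fold below HH10 in 73 members (40.1%), against 9.83% of all genes, and at least 1.5-fold above HH10 in 7 (3.85%), against 19.4%. Against HH12 it was at least 1.5-fold lower in 78 members (42.9%, against 9.33%) and higher in 1 (0.549%, against 17.9%). The members' median log2 difference between HH13 and HH10 was -0.43, against 0.02 over all genes. HH13 held the lowest of the 4 values in 127 members (69.8%, against 34.9%). The rule raises this share, since HH11 can be the lowest stage of other genes but not of a member. HH10 was lowest in 37 members (20.3%, against 21.4%) and HH12 in 18 (9.89%, against 17.4%). Ties were counted for the earliest stage, so the 37 include the 12 members listed at 0 at HH10, HH12 and HH13. The rule removes genes that are high at HH13, which by construction lowers the shares higher at HH13 and raises the shares lower there. When HH13 was left out of the rule, 223 genes exceeded HH10 and HH12 by 1.5-fold. Of those, HH13 lay at least 1.5-fold below HH10 in 73 (32.7%) and above it in 28 (12.6%), so the lower share stayed above that of all genes in these libraries.

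The members that were at least 3-fold lower at HH13 than at HH12 numbered 24 (13.2%, against 1.17% of all genes). They included VENTX, NOG, EX-FABP, ADAMTS20 and GATA4, whose values are given above. The 7 members at least 1.5-fold higher at HH13 than at HH10 included LDHA, SLC5A8, the chloride channel protein gene CLIC5 and LASP-2, a LIM and SH3 domain protein of the actin cytoskeleton. LASP-2 had 0.989, 6.88, 1.12 and 2.45 FPKM. MTRF1, a mitochondrial release factor, also stayed above its HH10 level, with 16.8, 42.7, 26.4 and 23.3 FPKM, and PDZK1IP1, a small membrane protein, had 101, 196, 129 and 128 FPKM.

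**Figure D4:**
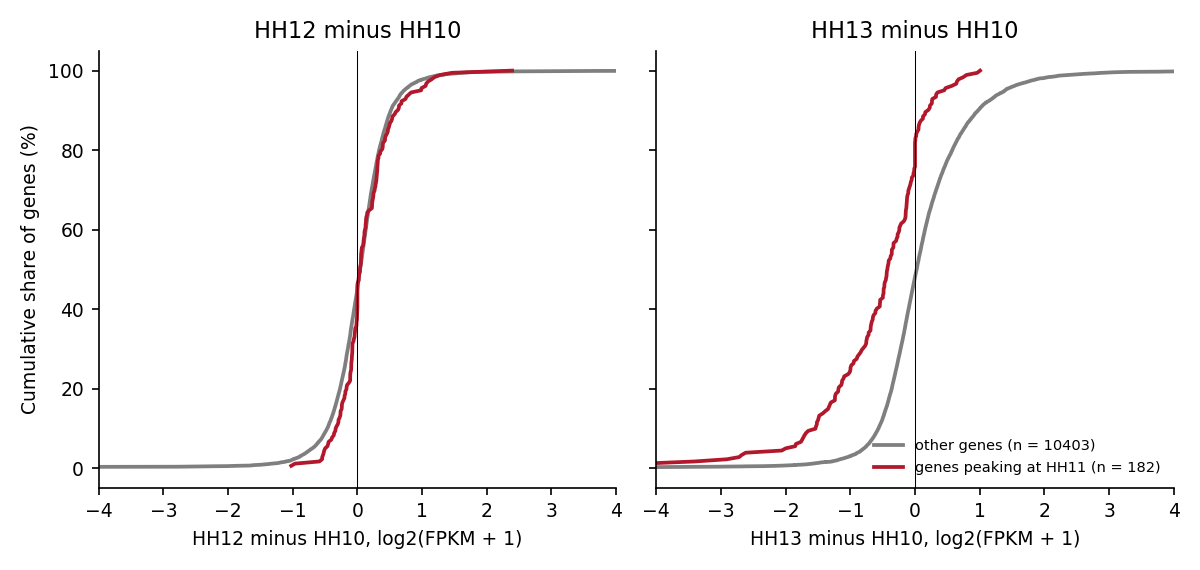
Cumulative share of genes (%) against the log2(FPKM + 1) difference of HH12 minus HH10 (left) and HH13 minus HH10 (right), for the 182 members and the 10403 other genes. The curves nearly coincide on the left, and on the right the members lie to the left of the other genes, with a median of -0.43. The axes stop at -4 and 4.

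By position, members lay on 25 of the 28 numbered chromosomes. Chromosome 1, which holds the most genes tested, had 31 of 1489 (2.08%, against 1.72% of all genes), and chromosome 13 had the highest share, 10 of 257 (3.89%), followed by chromosome 28 with 7 of 198 (3.54%). Another member lay within 100000 bases of 42 members (23.1%), against 9.8% of all genes tested. That share counts rows on the same locus, such as SNORA8 with SNORA1 and SNORA15 with SNORA22, and was not tested. Besides EX-FABP and its neighbour, HSPB8 lay 2612 bases from CCDC60, VNN1 lay 8259 bases from the trace amine receptor gene TAAR1, and ASTL lay 16326 bases from SYT13, a synaptotagmin. LY6E had PSCA, another member of the same lipid-anchored family, on one side and ENSGALG00000019430 on the other. CCDC60, TAAR1, SYT13 and PSCA passed the minimum of 1 FPKM through the HH11 library alone, so HH11 was bound to be their highest stage. Of the 182 members, 32 had a locus that was shared with another row (17.6%, against 14.7%). BLNK, ADAM19, ITGAV and WNT3A, whose values are given above, were among them. The authors' division of reads between such rows is not known.

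Small RNA rows had the highest ratios. Of 12 with such names, 10 were listed at 0 at HH10, HH12 and HH13, as were 2 genes known only by identifier (together 6.59% of members). Any gene tested that is at 0 in those stages is a member by the rule and the filter. For these 12 genes a fold difference cannot be given, and an exact 0 can be a failed estimate. Their HH11 values ran from 1.28 FPKM to 1796 FPKM, and 9 of the 11 members with a ratio of 5 or more were small RNAs from this set. The other two were NMU and ENSGALG00000009019. Without small RNA rows, 170 genes peaked at HH11.

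In the authors' deposited table, few members passed a q-value of 0.05, and the authors' tests rest on 1 library per stage. Of the 180 members on a single row, 5 had a q-value under 0.05 for HH10 against HH11 in the authors' deposited table (2.78%, against 0.143% of all genes), and these were EX-FABP, ASTL, VNN1, LDHA and ADAMTS20. For HH11 against HH12 the authors' deposited table had 1 member (0.556%, against 0.152%), EX-FABP, with a q-value of 0.0341. For HH11 against HH13 it had 11 (6.11%, against 1.7% in the authors' deposited table), among them SLC2A1, SLC2A3, KLF5, GATA4, ITGAV and SLC26A9. These contrasts are those of the rule, and the counts are given as a description. For HH12 against HH13 the authors' deposited table had 3 members (1.67%, against 0.505%), EX-FABP, ASTL and SLC2A3. The rule did not compare these stages with each other but removes genes high at either, so that share is not independent of it. For HH10 against HH13 the authors' deposited table had 1 member (0.556%, against 0.686%), SLC2A3, with a q-value of 0.0395.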

How the data were processed

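RNA from area vasculosa was measured in 4 libraries, 1 each for HH10, HH11, HH12 and HH13. Per the file headers, the authors deposited FPKM values for 17108 rows, with Ensembl identifiers, names and loci. They also deposited a p-value and a q-value for each of the 6 pairs of stages, per the file headers. Per the submitters' processing notes, TopHat2 2.0.8, Cufflinks and Cuffdiff were used with build galGal4. The annotation release and library scaling were not given in the sources used here.

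From these values, 15004 rows on numbered chromosomes were kept and rows of 1 name were summed (146 names), while 2362 rows without a name kept their identifiers. This gave 14668 genes, of which 10585 had at least 1 FPKM in a library. A gene was a member when HH11 + 1 was at least 1.5 times the value + 1 of each other stage, which gave 182. Deposited locus starts were taken to count from 0, and 1 was added to print them. FPKM values keep no depth, so no interval is given, and with 1 library per stage no test was run. Differences were described by size, beside the share of all genes past the same limit. The code of the rule was checked on simulated data with strong peaks planted in well-expressed genes. That check does not bear on members near the limit or at low FPKM.

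The members and the 24 gene lists (984 entries, 616 genes measured) and 16 families were chosen with earlier results of these data known. Entries not found on a numbered chromosome at 1 FPKM were not analysed here. Named genes were, among members with a symbol, the 20 with the greatest ratio and at least 5 FPKM at HH11, the 10 highest at HH11, up to 4 per list or family, those nearest the limit, and the 6 highest and 6 lowest for HH13 over HH10. Other members and list genes were named as examples after their values were seen, as were the role groups. Some members that the rule would name are not reported here. A RefSeq gene table of another assembly matched 126 of the 133 symbols, all as protein coding, and none of its coordinates are used. Alternatives numbered 13, with 3 added after the data were seen. Python 3.11.15, pandas 2.3.3, numpy 2.4.6 and matplotlib 3.10.9 were used.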

Additional observations from a re-analysis of the deposited data

How the results depend on the processing

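The number of genes peaking at HH11 depended most on scaling and on the limit. It was 182 as deposited and with median-of-ratios scaling, and 237 at the same total FPKM without globin, ribosomal RNA and the row highest in HH10. It was 482 at the same total FPKM, which moved the median log2 difference of all genes between HH11 and HH10 from 0.03 to 0.31. All 182 members met the rule under each of these 4 scalings. Each alternative scaling gave HH11 the largest factor, such as 1.13 against at most 1.03 with totals made equal. It thus raised HH11 relative to the other stages and could hardly remove a member. It was 86 with a pseudocount of 5, 44 at 2-fold, 884 at 1.2-fold, and 422, 398 and 223 with HH10, HH12 or HH13 left out of the comparison. Among members, those at least 1.5-fold higher at HH13 than at HH10 numbered 2 with a pseudocount of 5 (7 as reported), and those lower 45 (73 as reported). Members higher at HH12 than at HH10 (20 as reported) numbered 9 under a pseudocount of 5 and 32 with totals made equal. Members lower at HH12 (3 as reported) numbered 15 under a pseudocount of 0.1, and 7 with totals made equal without globin, ribosomal RNA and the row highest in HH10. Of 48 named members, 12 missed 1.5-fold with a pseudocount of 5 and 29 missed 2-fold. Under the other settings all that had a value met the limit. Most of those settings loosened the rule, raised HH11 relative to the other stages or left a member's own values unchanged. They therefore had little or no way to remove a named member, and that result does not show stability. The 3 settings added after the data were seen gave 184 genes with RNA family and date names kept apart, 170 without small RNA rows and 151 without rows on a shared locus. Depth is unknown, so low values cannot be given a limit. No paired analysis was possible because each stage had 1 library.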

Other observations

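The same ratio was met by 26 of 1164 genes (2.23%) outside the numbered chromosomes, which the count of 182 leaves out. Inflammatory signalling genes were among them. IL-1BETA, the cytokine interleukin 1 beta, had 3.48, 17.3, 6.76 and 0.244 FPKM in stage order. STAT6, a transcription factor activated by cytokine receptors, had 21.9, 41.4, 22.1 and 18.5 FPKM, and IL17RE, a receptor of the interleukin 17 family, had 19.1, 33.6, 19.2 and 15.5 FPKM. FSTL3, a secreted binder of activin, had 0.941, 8.99, 2.77 and 0.0731 FPKM. All 4 lay on unplaced scaffolds, and they were chosen after their values were seen.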
